A study of Mus musculus with 8 samples.

Results

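Open chromatin was described at the genes of 9 transcription factors that set up or maintain hepatocyte identity: Hnf4a, Foxa1, Foxa2, Foxa3, Cebpa, Nr1h4, Nr5a2, Prox1 and Nr1i3. The genes were taken by name. Every peak that overlapped the mm10 gene body of one of them, or the 10 kb on either side, was assigned to that gene and is called a locus peak. The 9 genes stand among 17491 protein-coding genes that have an annotated transcription start in the RefSeq promoter table used here. Overlapping peaks of the lists were merged, and the 9 loci held 83 of the 138775 merged regions.

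The assay was ATAC-seq on bulk cells, a method that marks open DNA by where a transposase can insert sequencing adapters. Mice were of the Rb family triple knockout model of hepatocellular carcinoma. All groups share that deletion, and all cells were YFP-positive, a reporter that marks cells in which Cre recombined the floxed alleles. Cells came from digested liver or from macroscopic lesions and were sorted by the surface proteins Thy1 and EpCAM. The labels give 8 samples in 5 groups: EpCAM-high CK19 (2 samples), EpCAM-high Sox9 (1), Thy1+ CK19 (2), Thy1+ Sox9 (1) and Epcam- (2). They do not say what CK19 and Sox9 stand for in the group names, which promoter drives Cre, the animals' age or whether animals were pooled. The values analysed were 5 peak lists: EpCAM-high for CK19 and for Sox9, Prog-like for CK19 and for Sox9, and Tumor for Sox9. Where 5 values are given without names they follow that order. The EpCAM-high lists bear the names of 2 sample groups, and the Prog-like and Tumor lists are used under the authors' names and tied to no group.

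The lists held 56932, 59454, 71375, 67855 and 39644 peaks, and read depth is unknown. With a single list for each condition, no spread between replicates and no test could be computed, and a missing peak means only that none passed the authors' threshold there. Each count was repeated with every list reduced to its 39644 most significant peaks, which is called equal length. Marker genes of liver cell types set the lists apart. A start-site peak, meaning a peak that overlaps the 1000 bp on either side of an annotated transcription start, was present at 0, 1, 7, 7 and 0 of 7 macrophage markers, and the summed locus peaks of these markers were 3, 4, 48, 45 and 3. The macrophage genes Lyz2, Clec4f, Laptm5, Marco and Vsig4 had no locus peak in the EpCAM-high and Tumor lists. Hepatocyte markers had a start-site peak at 2, 2, 0, 0 and 5 of 7 genes, and no hepatocyte marker had a locus peak in a Prog-like list. Biliary markers had one at 7, 7, 3, 2 and 4 of 7 genes, stellate and mesenchymal markers at 2, 4, 2, 3 and 1 of 6, endothelial markers at 1, 2, 2, 1 and 1 of 7 and lymphocyte markers at 0, 0, 1, 1 and 0 of 7. At equal length these counts were 7, 7, 0, 0 and 4 (biliary) and 2, 2, 0, 1 and 1 (stellate and mesenchymal). The endothelial ones were 0, 0, 0, 0 and 1 and the lymphocyte ones 0 in every list. Macrophage and hepatocyte start-site counts did not change at equal length. The part of this cell content in the results below was not tested, and since the cells were measured in bulk, fewer cells of a type and less open chromatin per cell cannot be told apart.

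Hepatocyte identity rests on a small set of factors that bind each other's regulatory DNA and many of the same liver genes. The FOXA proteins are pioneer factors, able to bind nucleosomal DNA, and with HNF4A and C/EBP alpha they occupy many enhancers of liver genes. HNF4A is made from 2 promoters. The upstream promoter, P2, is used in fetal liver, pancreas and gut, and the downstream promoter, P1, gives the isoforms of adult hepatocytes. The nuclear receptors FXR (Nr1h4), LRH-1 (Nr5a2) and CAR (Nr1i3) govern bile acid, cholesterol and drug metabolism, and FXR also has an upstream and an intragenic promoter. PROX1 is needed for the outgrowth of the liver bud.

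Start sites of Hnf4a and of the 3 nuclear receptor genes, where the lists differed, and the Cebpa start, which had a peak in every list, are printed here so that the motifs at each can be read. Each window runs from 250 bp before to 30 bp after the start, 5′ to 3′ on the strand of the gene, as given for the build GRCm38.p6 (the same sequence as mm10) by the RefSeq promoter table. Capitals mark matches to the motifs that were searched.
Hnf4a upstream start (chr2:163506607-163506886, plus strand): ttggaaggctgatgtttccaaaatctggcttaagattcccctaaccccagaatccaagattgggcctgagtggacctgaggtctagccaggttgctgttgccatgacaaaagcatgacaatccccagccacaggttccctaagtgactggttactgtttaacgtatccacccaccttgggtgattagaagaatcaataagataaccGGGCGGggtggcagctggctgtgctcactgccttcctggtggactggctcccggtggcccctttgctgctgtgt
Hnf4a downstream start (chr2:163546905-163547184, plus strand): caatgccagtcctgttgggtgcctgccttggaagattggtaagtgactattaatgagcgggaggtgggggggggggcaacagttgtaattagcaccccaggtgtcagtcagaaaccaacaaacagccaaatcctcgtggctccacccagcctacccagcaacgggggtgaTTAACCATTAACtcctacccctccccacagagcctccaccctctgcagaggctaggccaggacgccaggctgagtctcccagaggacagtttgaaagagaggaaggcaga
Nr1h4 intragenic start (chr10:89506629-89506908, minus strand): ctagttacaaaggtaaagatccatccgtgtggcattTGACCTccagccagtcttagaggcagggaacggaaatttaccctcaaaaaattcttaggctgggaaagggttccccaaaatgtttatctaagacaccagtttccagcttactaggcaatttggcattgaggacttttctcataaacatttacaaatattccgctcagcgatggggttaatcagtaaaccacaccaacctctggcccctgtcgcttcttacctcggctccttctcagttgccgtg
Nr5a2 upstream start (chr1:136960419-136960698, minus strand): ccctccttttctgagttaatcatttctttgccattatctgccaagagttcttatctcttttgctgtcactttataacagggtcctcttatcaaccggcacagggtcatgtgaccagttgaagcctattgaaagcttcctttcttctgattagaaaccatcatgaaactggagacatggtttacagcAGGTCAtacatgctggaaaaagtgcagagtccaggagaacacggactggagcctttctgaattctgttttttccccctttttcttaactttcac
Nr5a2 downstream start (chr1:136953601-136953880, minus strand): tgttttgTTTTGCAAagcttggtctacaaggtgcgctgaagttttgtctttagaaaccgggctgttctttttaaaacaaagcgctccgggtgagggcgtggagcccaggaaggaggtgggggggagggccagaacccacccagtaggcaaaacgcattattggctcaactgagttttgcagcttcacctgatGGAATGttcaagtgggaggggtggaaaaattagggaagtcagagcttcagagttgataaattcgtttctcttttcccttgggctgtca
Nr1i3 start (chr1:171213720-171213999, plus strand): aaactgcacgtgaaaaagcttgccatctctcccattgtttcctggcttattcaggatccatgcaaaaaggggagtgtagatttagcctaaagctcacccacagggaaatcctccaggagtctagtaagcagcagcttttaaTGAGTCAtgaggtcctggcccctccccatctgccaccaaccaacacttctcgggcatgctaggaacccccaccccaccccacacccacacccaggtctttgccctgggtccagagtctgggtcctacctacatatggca
Cebpa start (chr7:35119043-35119322, plus strand): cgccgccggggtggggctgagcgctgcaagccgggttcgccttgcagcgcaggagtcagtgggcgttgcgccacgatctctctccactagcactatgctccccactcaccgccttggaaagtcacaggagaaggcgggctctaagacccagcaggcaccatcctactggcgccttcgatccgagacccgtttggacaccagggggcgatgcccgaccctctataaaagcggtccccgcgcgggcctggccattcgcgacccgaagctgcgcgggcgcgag

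The motifs were searched on both strands in 14 start-site windows of the 9 genes and in all 21262 windows of the table. TGTTTAC of forkhead factors was found at 1 of the 14, the Foxa1 start from -141 to -135 bp, against 2.84% of all windows. AGGTCA, the core element of nuclear receptors, was found at Nr1h4 from -214 to -209 bp and at the upstream Nr5a2 start from -64 to -59 bp, against 13.9% of all windows. The downstream Nr5a2 start held the C/EBP motif TTGCNNAA from -243 to -236 bp (9.81% of all windows) and the TEAD motif GGAATG from -58 to -53 bp (12.9%). The Nr1i3 window held the AP-1 motif TGANTCA from -109 to -103 bp (6.74%). The PU.1 motif GAGGAAGT was found at 1 of the 3 Foxa2 starts (2.62% of all windows). The GC box GGGCGG was found at 8 of the 14 windows against 45.1% of all, among them the upstream Hnf4a start from -44 to -39 bp. The HNF4 motif CAAAGTCCA (0.442%), the NR5A motif TCAAGGTCA (0.329%), a strict HNF1 motif and an inverted repeat of the kind FXR binds (0.0047% each) had no match in the 14 windows, and the Cebpa window matched no motif. A looser HNF1 motif, chosen after the sequences had been seen, matched the downstream Hnf4a start from -80 to -69 bp, and it matched 0.108% of all windows. TCAAGGTCA and the inverted repeat both contain AGGTCA. A match is a description of the letters and not evidence of binding.

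Every one of the 9 genes had at least 1 locus peak in every list, against 75.8%, 74.5%, 74.4%, 72.3% and 68.7% of all genes. For locus peaks, here and below, all genes means the 21896 protein-coding genes with a position, including those without an annotated start. Summed over the 9 genes, the lists held 58, 61, 29, 25 and 50 locus peaks. The EpCAM-high and Tumor lists thus had more peaks at these loci than the Prog-like lists, although the Prog-like lists were the longest. As a share of each list these were 0.102%, 0.103%, 0.0406%, 0.0368% and 0.126% of its peaks. The median gene of the 9 had 5, 5, 3, 2 and 5 locus peaks, and the median over all genes was 2, 2, 2, 2 and 1. At equal length the sums were 45, 38, 15, 15 and 50. Nr5a2 alone gave 19, 20, 2, 1 and 12 of the peaks, and without it the sums were 39, 41, 27, 24 and 38.

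**Figure D1:**
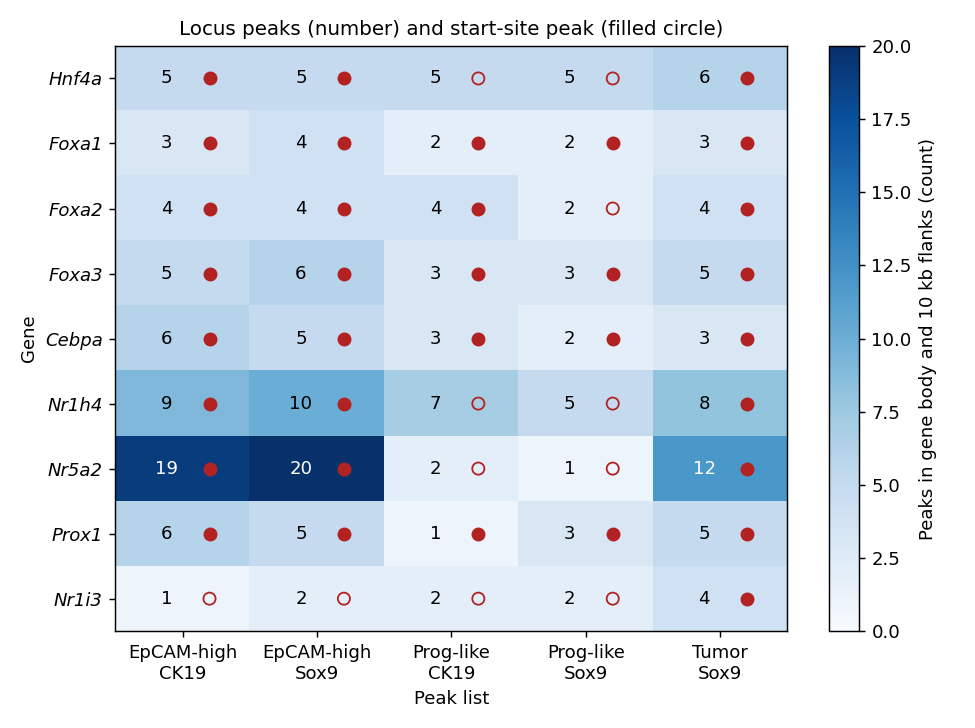
Locus peaks of the 9 genes (rows) in the 5 peak lists (columns), as deposited: the printed number and the blue shade give the count of peaks, and a filled red circle marks a start-site peak while an open circle marks none. Nr5a2 reaches 20 peaks in EpCAM-high Sox9 and has 1 in Prog-like Sox9, and the circles of Hnf4a, Nr1h4 and Nr5a2 are open in both Prog-like columns.

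A start-site peak was present at 8, 8, 5, 4 and 9 of the 9 genes. Over all 17491 genes the shares were 59.4%, 59.6%, 58.0%, 55.3% and 52.8%. Foxa1, Foxa3, Cebpa and Prox1 had a start-site peak in all 5 lists, as did 46.6% of all genes. Hnf4a, Nr1h4 and Nr5a2 had one in both EpCAM-high lists and in neither Prog-like list, a pattern shown by 4.92% of all genes. The opposite pattern was shown by 0 of the 9 and by 3.17% of all genes. Nr1i3 had a start-site peak in the Tumor list and no other, a pattern of 0.943% of all genes.

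Hnf4a, a nuclear receptor that activates most liver-specific programmes, lies on chromosome 2 from 163506811 to 163572907 on the plus strand. Its number of locus peaks was nearly level over the lists, at 5, 5, 5, 5 and 6, and at equal length it was 2, 2, 3, 2 and 6. The positions of those peaks differed. The upstream start at 163506857, the P2 promoter, carried a peak in 3 lists: chr2:163506485-163507056 in EpCAM-high CK19, chr2:163506476-163507058 in EpCAM-high Sox9 and chr2:163506514-163507295 in Tumor Sox9. Their summits lay at -123, -123 and -77 bp from the start. Ranked by significance within their own lists they stood at percentiles 82.0, 69.8 and 87.0, and each was the best-ranked Hnf4a peak of its list. Such ranks use the authors' −log10 q of each peak and describe a peak only within its list. The nearest Prog-like peaks lay 9119 bp (CK19) and 9614 bp (Sox9) from that start.

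The downstream start of Hnf4a at 163547155, the P1 promoter, carried a peak in the Tumor list alone. That peak, chr2:163546813-163547565, had its summit at -29 bp, a fold enrichment of 4.07 and a −log10 q of 5.4, at percentile 33.0 of the Tumor list. The printed window of this start is the one that matched the looser HNF1 motif. That motif was chosen after the sequences had been seen, so the match lends the peak no support. In the other lists the nearest peak lay 19885, 19732, 11584 and 11529 bp away. A peak at a start site in the Tumor list and no other was found at 207 of the 21262 start sites of the table (0.974%). The Tumor list also held a peak of its own on either side of this start, centred 33.2 and 48.6 kb from the upstream start.

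The Prog-like lists had their own positions inside Hnf4a. Both held peaks centred 25.3 and 28.4 kb from the upstream start that no other list had, and the peak at 28.4 kb was their best-ranked one at the gene, at percentiles 58.6 (CK19) and 60.5 (Sox9). A region at 9.4 kb joined peaks of EpCAM-high Sox9 and both Prog-like lists, and one at 20.4 kb was held by the EpCAM-high lists. At 9.4 kb the EpCAM-high Sox9 peak (chr2:163515731-163515984) did not overlap the Prog-like Sox9 peak (chr2:163516471-163516796). They were merged only through the Prog-like CK19 peak. Regions past the gene's end, at 68.5 and 73.6 kb, were held by all 5 lists.

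**Figure D2:**
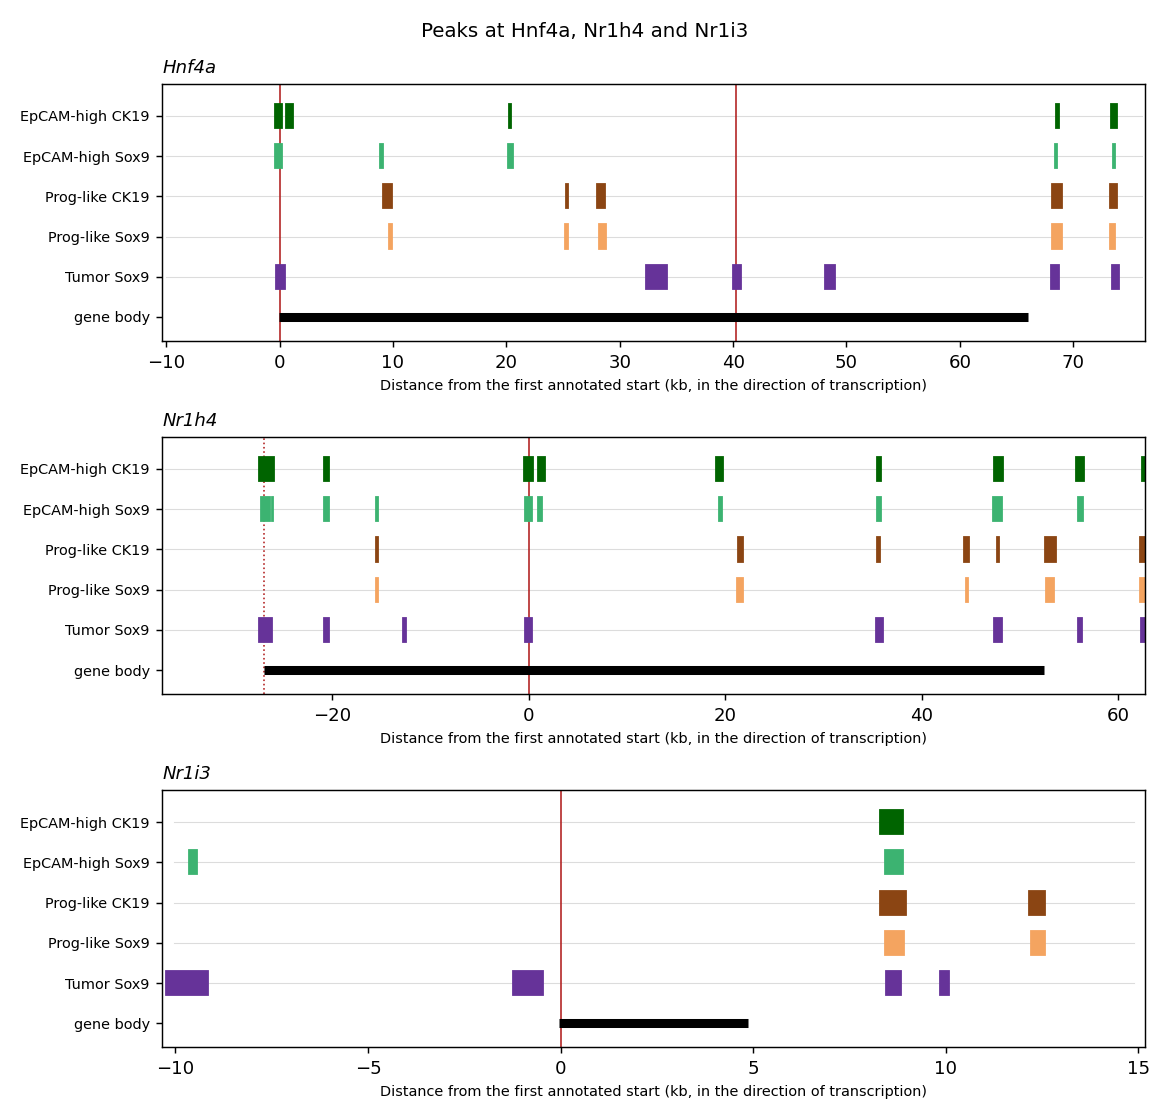
Peaks of the 5 lists at Hnf4a, Nr1h4 and Nr1i3, drawn to scale by distance from the first annotated start in kb, with the gene body in black, annotated starts as solid red lines and the upstream end of Nr1h4 as a dotted line. At Hnf4a the start at 0 kb carries EpCAM-high and Tumor peaks, the start near 40.3 kb carries a Tumor peak alone, and the Prog-like peaks at 25.3 and 28.4 kb have no counterpart in the other lists.

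Of the FOXA genes, Foxa1 (chromosome 12, 57540628 to 57548029, minus strand) had 3, 4, 2, 2 and 3 locus peaks. Its start at 57546111 lay under a single broad peak of 2047, 2084 and 2185 bp in EpCAM-high CK19, EpCAM-high Sox9 and Tumor Sox9, at percentiles 80.4, 89.3 and 71.3. The Prog-like lists instead had a pair of narrower peaks around the start, of 672 and 528 bp (CK19) and of 636 and 172 bp (Sox9), the better ranked at percentiles 29.8 and 17.8. None of these Prog-like peaks overlapped the 300 bp on either side of the start, and none remained at equal length. Foxa1 therefore had 0 locus peaks in both Prog-like lists at equal length, against 2, 3 and 3 in the other lists. With −log10 q of 5 or more the counts were instead 3, 3, 2, 2 and 2, so the Prog-like peaks remained. A region 7.0 kb past the start was held by the EpCAM-high and Tumor lists.

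Foxa2 (chromosome 2, 148042877 to 148046969, minus strand) had 4, 4, 4, 2 and 4 locus peaks and starts at 148046969, 148045948 and 148045464. Peaks of 1649, 1753 and 1496 bp covered the first of these in EpCAM-high CK19, EpCAM-high Sox9 and Tumor Sox9, at percentiles 85.6, 90.7 and 74.3. Prog-like CK19 had a 514 bp peak there at percentile 12.6, which was lost at equal length, and the nearest peak of Prog-like Sox9 lay 1242 bp from that start. A region centred at -1.7 kb was held by all 5 lists, with the summit at -1710 bp in the EpCAM-high and Prog-like lists and at -1921 bp in the Tumor list. This was the best-ranked Foxa2 peak of the Prog-like lists, at percentiles 74.4 and 70.2; in the Tumor list the best was a region past the gene, centred at 7.5 kb, at 75.6. A region at -3.7 kb was held by the Prog-like lists alone.

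Foxa3 (chromosome 7, 19013283 to 19023539, minus strand) had 5, 6, 3, 3 and 5 locus peaks and a start-site peak in every list. The best-ranked peak of each list was in this region, at percentiles 76.2, 81.3, 87.4, 83.7 and 81.4, with summits at -745, -701, -758, -716 and -720 bp from the start. The same region lies within 1000 bp of the start of the neighbouring gene Sympk, so the peak cannot be given to Foxa3 alone. Regions centred 11.2 and 12.8 kb past the start were held by the EpCAM-high and Tumor lists and by neither Prog-like list. The 3 Prog-like peaks of each list at this locus were the one at the start and a pair near the start of Irf2bp1.

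Cebpa (chromosome 7, 35119293 to 35121928, plus strand) encodes C/EBP alpha, a factor of hepatocytes and also of myeloid cells. It had 6, 5, 3, 2 and 3 locus peaks, but 11, 14, 20, 18 and 11 with flanks of 50 kb. Its start carried a wide peak in every list, of 1522, 1753, 1803, 1798 and 1646 bp, with summits at -72, -86, -88, -88 and -293 bp. These peaks stood at percentiles 76.5, 84.5, 96.1, 96.7 and 67.0 of their own lists, the best rank of each list at the gene. The macrophage markers with peaks in the Prog-like lists are given above, and their part in the Cebpa peaks was not tested. The surroundings differed between lists. A region at 5.6 kb was held by the Prog-like lists alone, and regions at -2.5, 9.9 and 11.2 kb by the EpCAM-high lists alone.

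**Figure D3:**
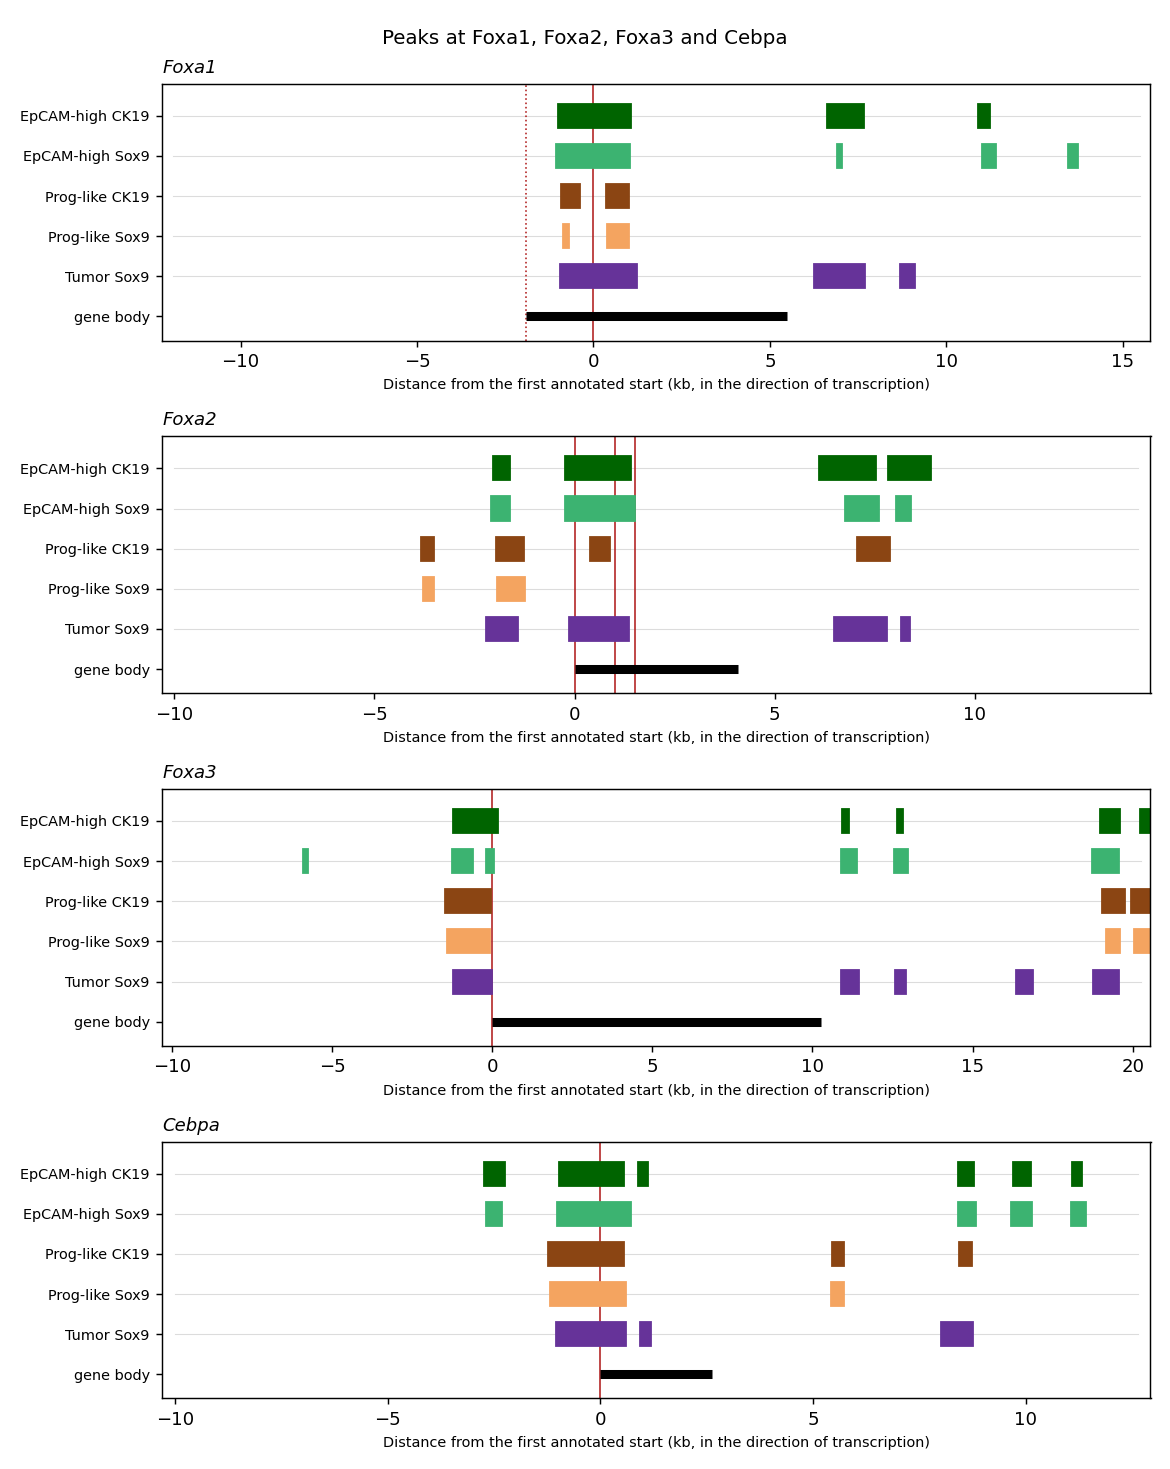
Peaks of the 5 lists at Foxa1, Foxa2, Foxa3 and Cebpa, drawn to scale by distance from the first annotated start in kb, with the gene body in black, annotated starts as solid red lines and the upstream end of Foxa1 as a dotted line. At Foxa1 and Foxa2 the EpCAM-high and Tumor peaks at the starts are wider than the Prog-like ones, whereas the Cebpa start carries a peak of 1522 to 1803 bp in every list.

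Nr1h4, the gene of the bile acid receptor FXR, lies on chromosome 10 from 89454234 to 89533645 on the minus strand. It had 9, 10, 7, 5 and 8 locus peaks. The annotated intragenic start at 89506658 carried a peak in both EpCAM-high lists and the Tumor list, with summits at 6, -11 and 133 bp and percentiles 73.4, 60.3 and 68.0. The upstream end of the gene, 89533645, also carried peaks in those 3 lists, with summits 38, 38 and 185 bp inside the gene and percentiles 89.9, 90.3 and 75.0. No start is listed at that end in the promoter table used here. The nearest Prog-like peaks lay 15334 and 15302 bp from the intragenic start, and 11474 and 11487 bp from the upstream end. The intragenic start and the upstream end thus had peaks in the same 3 lists.

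The best-ranked Nr1h4 peaks of the EpCAM-high and Tumor lists were within the gene. A region 47.7 kb past the intragenic start was the best-ranked of the gene in EpCAM-high CK19 (percentile 98.8) and Tumor Sox9 (92.6). A region at -20.6 kb ranked best in EpCAM-high Sox9 (98.2). Prog-like CK19 held the first of these at percentile 15.5, and Prog-like Sox9 held neither. The Prog-like lists had regions of their own at 21.5, 44.6 and 53.1 kb, of which the one at 44.6 kb stood at percentiles 87.6 and 86.7. Their best-ranked peak, at 63.1 kb and percentiles 97.2 and 96.4, lies at the start of the neighbouring gene Gas2l3 and was held by all 5 lists.

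Nr5a2, the gene of LRH-1, a nuclear receptor of bile acid and cholesterol synthesis that is also active in biliary and pancreatic cells, lies on chromosome 1 from 136842562 to 136960448 on the minus strand. It differed most between lists, with 19, 20, 2, 1 and 12 locus peaks as deposited and 15, 12, 0, 1 and 12 at equal length. These formed 22 regions, of which 10 were held by EpCAM-high and Tumor lists, 10 by EpCAM-high lists alone, 1 by all 5 lists and 1 by another mixture. The upstream start at 136960448 carried a peak in EpCAM-high CK19, EpCAM-high Sox9 and Tumor Sox9, with summits at -269, -262 and -254 bp and percentiles 79.6, 68.0 and 58.1. The downstream start at 136953630 had peaks in the EpCAM-high lists alone, 392 and 431 bp away, and the Sox9 one was lost at equal length. Both lie outside the printed window of that start.

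The Prog-like lists had almost nothing at Nr5a2. Prog-like CK19 held a peak at -6.6 kb at percentile 0.972 of its list, where the peaks of the EpCAM-high and Tumor lists stood at 87.5, 81.2 and 66.2. Both Prog-like lists held the region 121.1 kb past the upstream start, beyond the end of the gene, at percentiles 33.1 and 44.6. That was the only region of the gene found in all 5 lists. Inside the gene body neither Prog-like list had a peak, and the best-ranked peaks there were at 29.2 kb in EpCAM-high Sox9 (83.4) and at 100.6 kb in Tumor Sox9 (75.8).

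**Figure D4:**
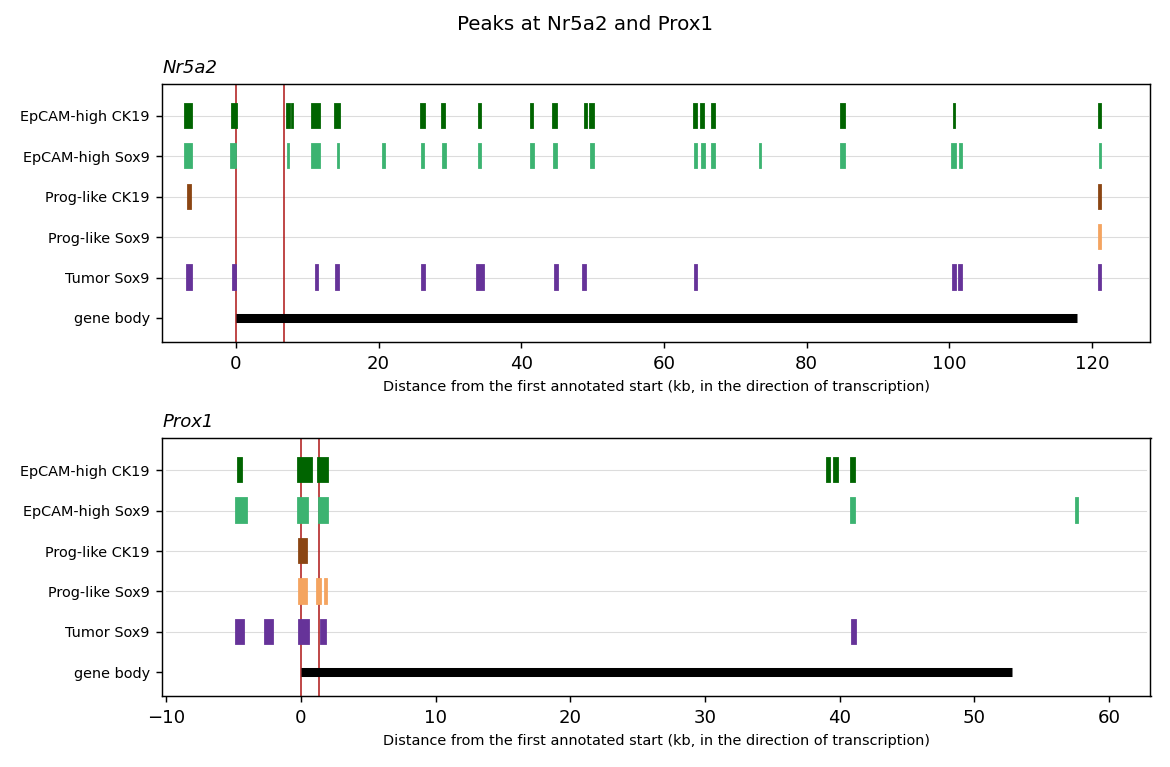
Peaks of the 5 lists at Nr5a2 and Prox1, drawn to scale by distance from the first annotated start in kb, with the gene body in black and annotated starts as solid red lines. The 19, 20 and 12 peaks of the EpCAM-high and Tumor lists run along the whole Nr5a2 gene, where the Prog-like lists show 2 and 1, and at Prox1 the start at 0 kb carries a peak in every list.

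Nr1i3, the gene of CAR, a receptor that induces drug-metabolising enzymes, lies on chromosome 1 from 171213934 to 171218845 on the plus strand. It had the fewest locus peaks summed over the lists, 11, or 1, 2, 2, 2 and 4 by list. The Tumor list alone had a start-site peak, chr1:171212728-171213509, with its summit at -837 bp from the start at 171213970 and at percentile 59.5. The edge of that peak lay 461 bp from the start, so it was not counted with a window of 300 bp. The Tumor list also had its best-ranked peak of the gene at -9.7 kb (percentile 79.3), where EpCAM-high Sox9 had a narrower one. All 5 lists held a region at 8.6 kb that lies within 1000 bp of the start of Apoa2, an apolipoprotein gene. It was the best-ranked peak of the locus in both EpCAM-high lists (98.9 in the Sox9 one) and both Prog-like lists (97.6 and 96.0). A further Tumor peak, chr1:171223822-171224063, also lies within 1000 bp of that start, so 1 of the Nr1i3 locus peaks in the EpCAM-high and Prog-like lists, and 2 in the Tumor list, stand at another gene's start.

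Prox1, a homeobox factor of the early liver bud and of lymphatic endothelium, lies on chromosome 1 from 190118035 to 190170827 on the minus strand. It had 6, 5, 1, 3 and 5 locus peaks, and 3, 2, 1, 1 and 5 at equal length. The upstream start at 190170827 carried a peak in every list, with summits at 117, 72, 111, 104 and 147 bp. Their percentiles were 89.0, 81.7, 45.6, 42.0 and 47.0, so each stood high in its own EpCAM-high list and near the middle of its list in the others. It was the best-ranked Prox1 peak of every list except Tumor, where the one at -4.4 kb stood at 56.6. The downstream start at 190169515 had a peak of its own in every list but Prog-like CK19, whose start-site call there came from the upstream peak, 902 bp away. Most of these peaks were weak. The Tumor one stood at percentile 1.9, and those of EpCAM-high Sox9 (25.1) and Prog-like Sox9 (17.6) were lost at equal length. Regions at -4.4 and 41.0 kb were held by the EpCAM-high and Tumor lists and by neither Prog-like list.

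Pairs of lists were then compared at the start sites. In the CK19 set, 3 of the 9 genes (Hnf4a, Nr1h4 and Nr5a2) had a start-site peak in EpCAM-high and not in Prog-like, against 6.57% of all genes, and 0 had the reverse, against 5.11%. In the Sox9 set these 3 and Foxa2 did so, 4 of 9 against 8.57%, and 0 had the reverse, against 4.26%. Between the Prog-like lists Foxa2 alone differed, with a peak in CK19 and not in Sox9 (3.24% of all genes), and 0 genes had the reverse (0.52%). No gene of the 9 differed between the EpCAM-high lists, where 2.53% of all genes had a peak in CK19 alone and 2.66% in Sox9 alone. The Tumor list had a start-site peak that EpCAM-high Sox9 lacked at Nr1i3 (2.01% of all genes) and lacked none that EpCAM-high Sox9 had (8.76%). It had one that Prog-like Sox9 lacked at Hnf4a, Foxa2, Nr1h4, Nr5a2 and Nr1i3, 5 of 9 against 4.79%, and lacked none that Prog-like Sox9 had (7.23%). These comparisons share lists and are not independent of each other.

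The 83 regions were sorted by the lists that held them. Values in parentheses are 95% binomial intervals (exact, Clopper-Pearson). They account for counting error alone, and neighbouring regions are not independent. Regions held by an EpCAM-high list and the Tumor list but no Prog-like list numbered 22, or 26.5% (17.4 to 37.3), against 6.97% of all 138775 regions. Regions of the Prog-like lists alone numbered 8, or 9.64% (4.25 to 18.1), against 36.9%. EpCAM-high lists alone held 23, or 27.7% (18.4 to 38.6), against 28.6%, and the Tumor list alone held 9, or 10.8% (5.08 to 19.6), against 8.45%. All 5 lists shared 11, or 13.3% (6.81 to 22.5), against 9.75%. At equal length, with 72 regions, the EpCAM-high and Tumor kind made up 26, or 36.1% (25.1 to 48.3), against 11.3% of all regions, and the Prog-like lists alone held 6, or 8.33% (3.12 to 17.3), against 28.6%. At that length the Tumor list alone held 15, or 20.8% (12.2 to 32.0), against 16.7%, and all 5 lists shared 7, or 9.72% (4.0 to 19.0), against 11.8%, which turned the direction of the last. Without Nr5a2, 61 regions remained, of which 12 were of the EpCAM-high and Tumor kind, 19.7% (10.6 to 31.8), and 8 were of the Prog-like lists alone, 13.1% (5.84 to 24.2).

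The regions held by all 5 lists lay at gene starts and outside the genes. Shares by position were not counted over all regions, so this cannot be called particular to these genes. Of the 36 regions inside a gene body and away from a start, 0 were held by all 5 lists, 12 by EpCAM-high and Tumor lists, 13 by EpCAM-high lists alone, 4 by Prog-like lists alone and 3 by the Tumor list alone. Of the 15 regions at a start, 4 were held by all 5 lists. Within 1000 bp of the start of another gene lay 6 of the 83 regions, and 4 of these were among the 11 held by all 5 lists.

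**Figure D5:**
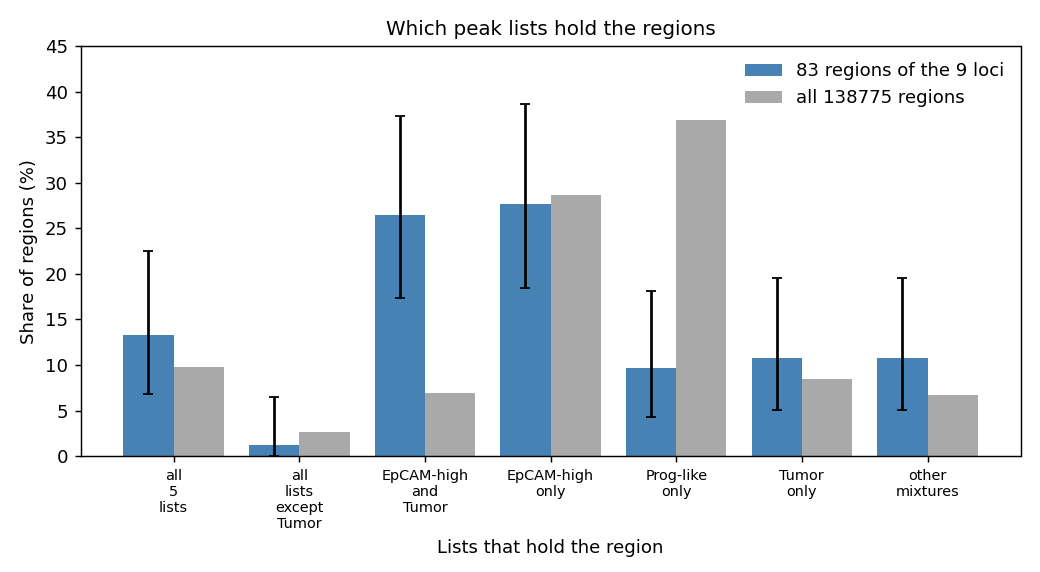
Share of merged regions (%, vertical axis) by the lists that hold them (horizontal axis), for the 83 regions of the 9 loci in blue, with exact 95% intervals as bars, and for all 138775 regions in grey. The blue bar is above the grey one for regions of EpCAM-high and Tumor lists (26.5% against 6.97%) and below it for regions of the Prog-like lists alone (9.64% against 36.9%).

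Sharing between lists at the 9 loci was set beside that over all regions. The EpCAM-high lists shared 51 of 66 regions at the 9 loci, 77.3% (65.3 to 86.7), against 52.3% over all regions, but at equal length the shares were 62.7% and 62.1%, so that no excess remained. The Tumor and EpCAM-high Sox9 lists shared 38 of 71, 53.5% (41.3 to 65.5), against 33.7%, and at equal length 44.3% (31.5 to 57.6) against 35.8%. The Prog-like lists shared 22 of 29, 75.9% (56.5 to 89.7), against 74.7%. Prog-like and EpCAM-high lists shared 18 of 67 in the CK19 set, 26.9% (16.8 to 39.1) against 20.1%, and 15 of 68 in the Sox9 set, 22.1% (12.9 to 33.8) against 19.9%. The Tumor and Prog-like Sox9 lists shared 12 of 60, 20.0% (10.8 to 32.3), against 18.6%. At equal length these last 3 shares fell below those of all regions, at 17.6% against 22.0%, 15.2% against 21.6% and 16.1% against 20.1%, and as deposited and at equal length each interval included the share of all regions. Where the EpCAM-high lists shared a region of these genes, the median distance between their summits was 27 bp, and 43 of 47 compared regions were within 100 bp. Over 7251 regions sampled at even steps from the whole set, that median was 35 bp. Between the Tumor and EpCAM-high Sox9 lists the median was 81.5 bp, against 62 bp over 4439 regions sampled in the same way.

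Other genes of the hepatocyte network were counted from lists of known regulators, targets and cofactors. Of 25 further hepatocyte regulators with an annotated start, 23, 23, 17, 17 and 21 had a start-site peak, and 21, 21, 12, 12 and 21 at equal length. Their median was 4 locus peaks in every list, against 2, 2, 2, 2 and 1 over all genes. As deposited, 17 of the 25 had one in all 5 lists, against 46.6% of all genes, and 6 had one in both EpCAM-high lists and neither Prog-like list, against 4.92%. The pattern held both as deposited and at equal length for 4 of these 6: Nr2f2, Nr1i2 (the drug receptor PXR), Ppara (a receptor of fatty acid oxidation) and Zbtb20. The other 2 were Rora and Creb3l3, named after their values were seen. Nr1i2 had 5, 4, 1, 2 and 4 locus peaks and Ppara 2, 2, 1, 1 and 4. Of 22 hepatocyte genes commonly given as targets of these factors, 6, 5, 5, 5 and 19 had a start-site peak, and 6, 5, 3, 1 and 19 at equal length. Their summed locus peaks were 30, 29, 27, 28 and 56, and the medians 1, 1, 0, 0 and 3. As deposited, most regulators thus had a start-site peak in all 5 lists. At equal length 12 of the 25 had one in each Prog-like list. At both settings most target genes had one in the Tumor list and few had one in any other list. Over all genes the shares with a start-site peak as deposited were 59.4%, 59.6%, 58.0%, 55.3% and 52.8%. The shares of all genes at equal length were not computed, so the equal-length counts of regulators and targets have nothing to be read against. Alb, the albumin gene and a member of the target list, had 1, 3, 0, 0 and 4 locus peaks. Of 6 cofactor genes, 5 had a start-site peak in each list.

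Among these lists and the cell type markers, 87 genes were compared with each of the 9 for the same presence of start-site peaks over the 5 lists, and then for the smallest summed difference in locus peaks. Hnf4a, Nr1h4 and Nr5a2 shared their pattern with 7 genes. Nearest to Hnf4a were Nr1i2 (summed difference 10), Creb3l3 (13) and Ppara (16), and nearest to Nr1h4 were Pkhd1 (16), Nr1i2 (23) and Creb3l3 (26). Nearest to Nr5a2 among the 7 was Nr1i2, at 40. Nr1i3 shared its pattern of a Tumor start-site peak alone with 12 genes, the nearest being Fgb (3), Slc10a1 (3) and Cyp8b1 (5), which are expressed in mature hepatocytes. Foxa1, Foxa3, Cebpa and Prox1 shared theirs with 26 genes. Nearest to Foxa1 were Med1 (2), Nr0b2 (2) and Atf5 (5), nearest to Foxa3 were Mlxipl (4), Onecut1 (5) and Apob (6), nearest to Cebpa were Nr2f1 (4), Onecut1 (4) and Apob (5), and nearest to Prox1 were Onecut1 (5), Apob (6) and Mlxipl (6). Foxa2 shared its pattern with 2 genes, Ugt1a1 (6) and Spp1 (7).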

How the data were processed

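Bulk ATAC-seq peak lists were analysed as deposited. Per the submitters' processing notes, Bowtie 1.1.2, MACS2, HOMER, deepTools and the build mm10 were used, with no role or order given. How libraries were pooled, shifted or cleared of duplicates is not stated in those sources. In the deposited narrowPeak layout the authors give a display score, a fold enrichment (a linear ratio over background) and −log10 p and q values for each peak. These served to order or select the peaks of a single list and were not compared across lists.

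Peaks, merged regions (overlap of at least 1 bp), start-site windows and motifs were counted with Python 3.11.15, pandas 2.3.3 and numpy 2.4.6, and exact intervals with SciPy 1.17.1, after the counting was tested on simulated peaks. Gene positions and starts came from RefSeq tables of GRCm38.p6, which here give no exons, so exons and introns were not separated. The 9 genes, the gene and marker lists and the motifs were chosen with earlier results of these data known. All 9 genes are named, with the best-ranked region of each list at each gene and every region at an annotated start that the results turn on. By rule, so are up to 6 genes per list with a start-site peak in both EpCAM-high lists and neither Prog-like list or the opposite, as deposited and at equal length, and up to 3 genes most like each member with 10 or more locus peaks. Alternatives were equal list length, −log10 q of 5 or more, start windows of 300 and 2500 bp, flanks of 50 kb or none, an overlap of 50% of either peak and, added after seeing the data, leaving out Nr5a2.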

Additional observations from a re-analysis of the deposited data

How the results depend on the processing

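Read depth is unknown, each condition has 1 list, and a longer list can give more peaks at a locus, so counts were also made at equal length. That setting cuts the lists at unlike significance. It dropped a Prog-like CK19 peak at Foxa1 with −log10 q of 15.1 and kept a Tumor peak at Prox1 with 1.79. Neither setting is therefore the better one for every list. No paired analysis was possible because the deposited lists carry no replicate numbers and no result comes from a test. At equal length the locus peaks over the 9 genes were 38 in EpCAM-high Sox9 and 15 in each Prog-like list. With flanks of 50 kb they were 96, 113, 70, 63 and 88, and in gene bodies alone 37, 37, 13, 12 and 27, in the order of the report. With the 50 kb flanks, Cebpa (11, 14, 20, 18 and 11) and Nr1i3 (4, 7, 12, 13 and 8) had most peaks in the Prog-like lists. The other genes had their highest count in an EpCAM-high list or the Tumor list. In gene bodies alone 5 of the 9 genes had a peak in Prog-like Sox9. Also at equal length, 3 of the 9 genes had a start-site peak in Prog-like CK19, and 5 had one in EpCAM-high CK19 and not in Prog-like CK19. The shares of all genes with these calls were not computed at that length, so the change cannot be told from that of all genes. At equal length the EpCAM-high lists shared 62.7% of regions, against 62.1% over all regions. The difference between the Prog-like lists at Foxa2 went to 0 genes at equal length and with a window of 2500 bp, and that between Tumor and EpCAM-high Sox9 at Nr1i3 went to 0 with a window of 300 bp. With −log10 q of 5 or more, all 33 summary values compared stayed within 1.5 times of the value reported or, for shared regions, within its interval. With an overlap of 50% the 6 shares did so too. The causes were not tested beyond what each setting changes.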
